A study of Mus musculus with 2 samples.

Results

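The 8 genes Hmgcs1, Idi1, Fdft1, Sqle, Lss, Dhcr7, Insig1 and Srebf2 belong to cholesterol synthesis and to the sterol sensor that sets its rate, and they were compared between 1 mouse pancreas array of the Nrdc-cKO group and 1 of the WT group. They were chosen by name, as all non-control probes whose RefSeq accession belongs to one of these genes, which gave 11 probes for 8 of the 22911 genes named on the array. The set holds 6 enzymes and 2 regulators but no receptor, so uptake is described through genes outside it. The Nrdc-cKO sample carried Ptf1a-Cre and Nrdcflox/flox, so that nardilysin, a metalloendopeptidase encoded by Nrdc, is lost where Ptf1a is or was expressed, while other cells of the gland keep it. For the sample labelled WT the labels give no further genotype, and whether it carried Cre or the floxed alleles is not stated. Both samples were total RNA of whole pancreas from male C57BL/6 mice aged 5 weeks, and the labels do not say how many animals an RNA came from. The study asked what nardilysin does in the exocrine pancreas.

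Cholesterol is built from acetyl-CoA through mevalonate, isoprenoid diphosphates, squalene and lanosterol. The transcription factor SREBP-2, encoded by Srebf2, is held in the endoplasmic reticulum by Insig proteins while sterol is plentiful. When sterol is scarce it travels with Scap to the Golgi, is cleaved by the site-1 and site-2 proteases and then raises transcription of nearly every enzyme of the pathway and of Insig1 itself. Acinar cells of the pancreas need membrane lipid for their extensive endoplasmic reticulum and secretory granules.

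Because SREBP-2 acts at promoters, with the CCAAT-binding factor NF-Y and often Sp1 beside it, the windows before the transcription starts of 4 of the genes are printed from RefSeq (GRCm38.p6). These are Idi1 and Insig1, which had the highest and the lowest difference, Hmgcs1, whose window held a full match to a sterol regulatory element, and Srebf2, the regulator. Each window holds the 250 bases before the start, on the plus strand, and lies at chr13:8885356-8885605 for Idi1, chr13:119690101-119690350 for Hmgcs1, chr5:28071162-28071411 for Insig1 and chr15:82147019-82147268 for Srebf2. Capitals mark matches on either strand to the sterol regulatory element TCACNCCAC, its shorter form TCACNCCA, the CCAAT box CCAAT and the GC box GGGCGG.
Idi1: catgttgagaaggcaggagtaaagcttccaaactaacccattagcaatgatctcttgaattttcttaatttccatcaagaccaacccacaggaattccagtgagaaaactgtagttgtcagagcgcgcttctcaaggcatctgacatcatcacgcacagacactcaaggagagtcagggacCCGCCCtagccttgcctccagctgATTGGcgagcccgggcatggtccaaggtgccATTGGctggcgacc
Hmgcs1: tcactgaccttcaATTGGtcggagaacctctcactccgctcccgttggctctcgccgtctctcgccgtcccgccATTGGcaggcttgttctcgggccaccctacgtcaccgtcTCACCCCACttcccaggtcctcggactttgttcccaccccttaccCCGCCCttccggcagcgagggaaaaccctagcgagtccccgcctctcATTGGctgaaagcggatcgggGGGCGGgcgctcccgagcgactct
Insig1: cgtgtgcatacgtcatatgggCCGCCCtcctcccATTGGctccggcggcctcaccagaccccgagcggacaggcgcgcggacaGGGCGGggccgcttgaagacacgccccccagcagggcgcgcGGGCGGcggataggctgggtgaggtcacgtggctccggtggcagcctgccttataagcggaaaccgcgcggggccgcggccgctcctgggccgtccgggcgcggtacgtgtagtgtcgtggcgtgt
Srebf2: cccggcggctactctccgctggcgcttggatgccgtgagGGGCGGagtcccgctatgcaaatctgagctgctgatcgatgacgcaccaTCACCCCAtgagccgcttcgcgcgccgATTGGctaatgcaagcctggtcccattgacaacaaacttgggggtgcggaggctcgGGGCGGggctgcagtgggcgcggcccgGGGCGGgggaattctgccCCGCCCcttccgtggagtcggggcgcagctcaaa

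Of the 8 genes, 6 had a promoter window in the RefSeq table. Fdft1 and Sqle are named only. Each of these 6 genes had a CCAAT box in at least 1 window, against 33.8% of all 32851 windows of this length in the table, and each had a GC box, against 32.7%. Dhcr7 had 3 windows and the others 1, so a gene was counted by any of its windows while the percentages count single windows. The Dhcr7 window that begins at chr7:143823149 had no GC box. All windows were used without matching for GC content, which was 44.8% to 73.6% in the windows of these genes. The Dhcr7 window that begins at chr7:143829964 held 2 CCAAT boxes, and its other windows held none. Hmgcs1 had 3 CCAAT boxes, Idi1 had 2, and Insig1, Lss and Srebf2 had 1 each. TCACNCCAC was found in the Hmgcs1 window, from 137 to 129 bases before the start, and in 1.05% of all windows. The shorter TCACNCCA, which lies within the longer motif and was added after the windows had been read, was also in the Srebf2 window and in 3.67% of all windows. A match describes the letters of these windows and does not show a bound site.

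All 11 probes were well above background on both arrays, so no gene of the set dropped out. Levels below are log2 processed signal relative to the 75th percentile of the array, and differences are Nrdc-cKO minus WT on that log2 scale. Each was also computed under 10 alternative settings, among them quantile and loess scaling, scaling on spiked-in control RNA, background correction by normexp (a model of signal plus noise) and the value table that the authors deposited. Each group had 1 array, so the spread between animals is unknown, no test could be made and a difference describes these 2 arrays. The error beside a difference combines the errors that the scanner software gives for the spot on each array, as the root of their summed squares. It lay between 0.20 and 0.32 for the 11 probes. For Hmgcs1, for example, the software error was 10.0% of the signal on both arrays. Repeat spots of a probe varied less, with a median SD of the difference of 0.032 over 291 probes and a 95th percentile of 0.074. Neither includes the animal, the dissection, the RNA extraction or the labelling.

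The 8 genes did not move as a block. On the Nrdc-cKO array 4 of them were higher and 4 lower, with differences from -1.26 for Insig1 to 0.85 for Idi1 and a median of 0.11, against a median of -0.18 over all 13001 genes measured on both arrays. None of the 8 was higher by 2-fold or more, as 12.8% of all genes were, and 1 was lower by 2-fold or more, as 17.3% of all genes were. The other 7 lay within 2-fold, as did 69.9% of all genes. At 1.5-fold, 2 genes were higher and 3 lower, against 20.1% and 31.3% of all genes. Counts this small are near this background.

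**Figure D1:**
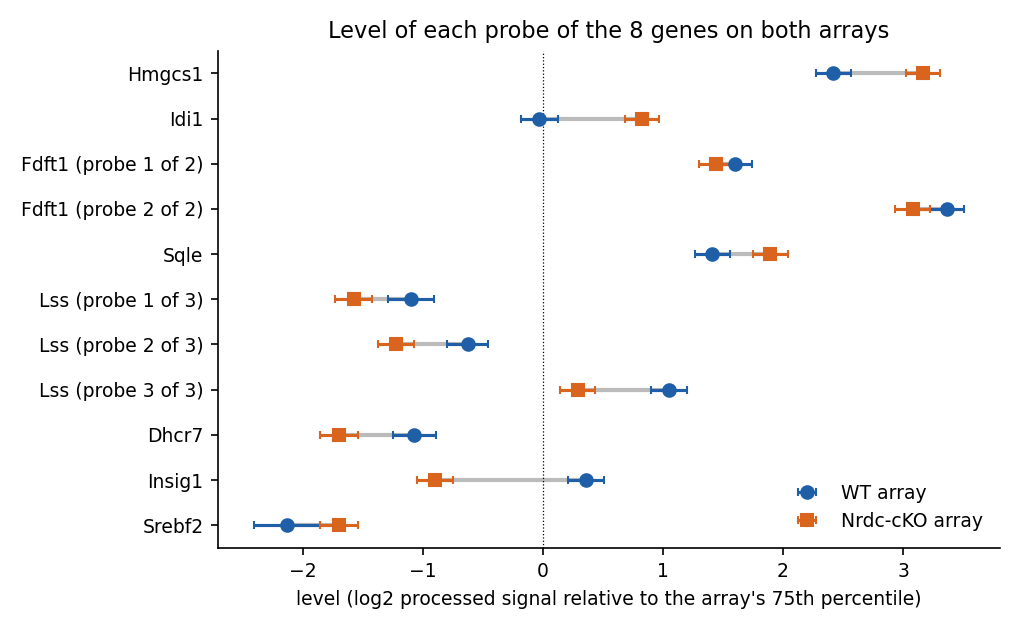
Level of each of the 11 probes on the WT array (circles) and the Nrdc-cKO array (squares), in log2 processed signal relative to the array's 75th percentile (dotted line at 0), with the scanner software's error as bars. Hmgcs1, Idi1, Sqle and Srebf2 were higher on the Nrdc-cKO array and the probes of Fdft1, Lss, Dhcr7 and Insig1 lower, with the widest gap at Insig1.

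The first enzyme of the set, Hmgcs1, condenses acetyl-CoA with acetoacetyl-CoA to HMG-CoA in the cytosol. Its processed signal was 378 in the WT sample and 2041 in the Nrdc-cKO sample, which is a level of 2.42 and 3.17. The Nrdc-cKO array was thus higher by 0.75 ± 0.20 (1.68-fold), more than 83.4% of all genes.

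Idi1 interconverts the isoprenoid building blocks isopentenyl and dimethylallyl diphosphate. Its signal was 69.3 in the WT sample and 403 in the Nrdc-cKO sample, at levels of -0.03 and 0.83. The difference of 0.85 ± 0.21 (1.81-fold) was the highest of the set and exceeded that of 85.1% of all genes. Hmgcs1 and Idi1 differed from each other by 0.11, less than the error of either, and exchanged their order under quantile scaling, loess and both normexp settings.

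Fdft1, or squalene synthase, joins farnesyl diphosphate units and commits the pathway to sterol. Its probes had levels of 1.60 and 3.36 in the WT sample and of 1.44 and 3.08 in the Nrdc-cKO sample. Their differences were -0.16 ± 0.20 and -0.29 ± 0.20, with a mean of -0.22. The first lay within its error, and the mean stood 0.04 below the median gene and turned to between 0.04 and 0.27 with loess, normexp followed by the 75th percentile and the authors' value table, and to 1.67 with spike-in scaling, so Fdft1 had no settled direction.

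Sqle, squalene epoxidase, carries out the first oxygenation of the sterol branch and is a known point of control. Its signal was 188 in the WT sample and 846 in the Nrdc-cKO sample, at levels of 1.41 and 1.90. It was higher on the Nrdc-cKO array by 0.48 ± 0.21 (1.40-fold). Its difference and that of Srebf2 were 0.05 apart, within the error of either.

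Lss, lanosterol synthase, closes the epoxide into the first sterol. Its 3 probes had levels of -1.10, -0.63 and 1.05 in the WT sample and of -1.58, -1.22 and 0.29 in the Nrdc-cKO sample. All 3 were lower there, with differences of -0.48 ± 0.25, -0.60 ± 0.23 and -0.76 ± 0.21 and a mean of -0.61 (1.53-fold lower). Lss thus lay on the other side of the median gene from Sqle, the enzyme that precedes it.

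Dhcr7 reduces 7-dehydrocholesterol to cholesterol in the last step of the pathway. Its signal was 33.7 in the WT sample and 70.1 in the Nrdc-cKO sample, at levels of -1.07 and -1.70. The difference was -0.63 ± 0.24 (1.54-fold lower), and 29.6% of all genes were lower still. Dhcr7 and Lss differed from each other by 0.02 and cannot be ordered.

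Of the regulators, Insig1 retains the SREBP and Scap complex in the endoplasmic reticulum and is itself a target of SREBP. Its signal was 90.9 in the WT sample and 122 in the Nrdc-cKO sample, at levels of 0.36 and -0.90. The difference of -1.26 ± 0.21 (2.39-fold lower) was the lowest of the set, with 11.7% of all genes lower still, and it stood 0.63 below Dhcr7, the next gene. It fell short of 2-fold with normexp and the 75th percentile (-0.90), normexp and quantile scaling (-0.80) and the authors' value table (-0.76). Insig1 was the lowest of the measured genes of the set in the main setting and with quantile scaling, loess and both normexp settings. It was also lowest under the other alternatives, which shift all genes alike or leave its value as in the main setting. Those alternatives say little about its rank.

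Srebf2, which encodes SREBP-2, had a signal of 16.2 in the WT sample and 70.2 in the Nrdc-cKO sample. Its levels were -2.13 and -1.70. The difference of 0.43 ± 0.32 (1.35-fold) had the largest error of the set and turned to -0.25 with normexp and the 75th percentile. This is a transcript level, and the processed, active form of the protein was not measured.

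**Figure D2:**
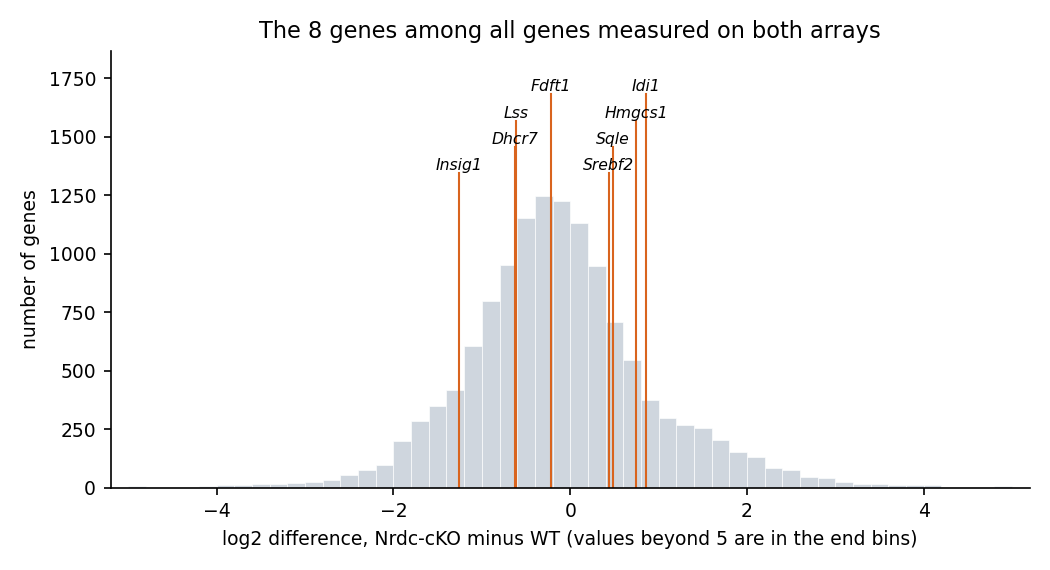
Number of genes (bars, bins of the log2 difference, Nrdc-cKO minus WT) among the 13001 genes measured on both arrays, with the 8 genes marked by lines. All 8 lie in the main body of the distribution, from -1.26 for Insig1 to 0.85 for Idi1.

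How far each gene lay above or below 0 depended on how the arrays were scaled. Before scaling, the median gene was 1.5 higher on the Nrdc-cKO array, and all 8 genes had more signal there. Compared with the main setting, the median gene moved by 1.90 with scaling on the spike-in controls, by 0.50 in the authors' value table, by -0.28 with no filter on dim probes, by 0.11 to 0.21 with quantile scaling, the 75th percentile over detected probes, loess and both normexp settings, and by 0.01 with bright probes only and with the brightest probe of each gene. With spike-in scaling all 8 genes stood higher on the Nrdc-cKO array, from 0.64 for Insig1 to 2.75 for Idi1, and 7 of them by at least 2-fold, as did 79.8% of all genes. Directions here are therefore relative to the other genes on each array. On that basis Hmgcs1 stood 0.92 to 1.21 above the median gene over the main and alternative settings, Idi1 0.71 to 1.31 and Sqle 0.45 to 0.94. Insig1 stood between -1.20 and -0.76 from it, Dhcr7 between -0.62 and -0.17 and Lss between -0.59 and -0.15. Fdft1 (-0.12 to 0.24) and Srebf2 (-0.19 to 0.89) crossed the median gene. Apart from Insig1, the upper end of each range came from the setting with no filter on dim probes. That setting moved the median gene but left the values of the 8 genes as they were. Spike-in scaling, the value table and the detected-probe percentile shift all genes alike, so by construction they add nothing to these ranges.

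**Figure D3:**
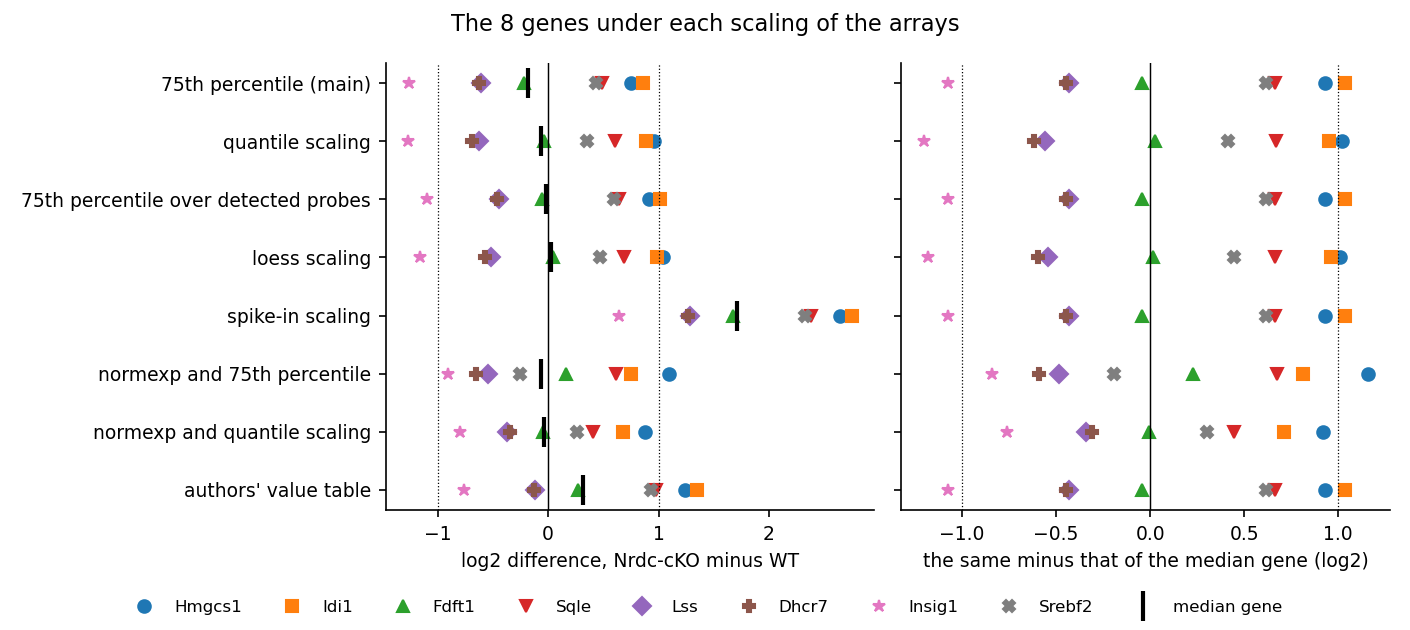
The 8 genes (symbols) under 8 scalings of the arrays, as log2 difference Nrdc-cKO minus WT with the median gene as a black bar (left) and after subtraction of the median gene (right), with dotted lines at 2-fold. Spike-in scaling moves all genes to the right, and relative to the median gene Insig1 stays lowest while Hmgcs1 and Idi1 stay highest. The main setting, the detected-probe percentile, spike-in scaling and the value table differ only by a constant per array. Their positions on the right are therefore identical by construction.

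The rest of the pathway showed the same mixture. Of 16 other genes of cholesterol synthesis, 14 were measured on both arrays and had a median of 0.13. Of these, 1 was past 2-fold upward and 1 downward. Idi2, a second isomerase, was not well above background on either array, and Acat2 had no named probe. In the mevalonate arm, mevalonate kinase Mvk stood at -0.18, phosphomevalonate kinase Pmvk at 1.01 and the decarboxylase Mvd at -0.11. Pmvk was the gene past 2-fold upward, with its 2 probes at 0.84 and 1.19, and it fell short of 2-fold with normexp and quantile scaling (0.93) and with its brightest probe alone (0.84).

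Fdps, which makes farnesyl diphosphate between the steps of Idi1 and Fdft1, stood at -1.02 and was the gene past 2-fold downward. It was between -0.86 and -0.49 in the alternatives that changed the scaling, except for spike-in scaling, where it was 0.87. Its levels were 3.59 in the WT sample and 2.57 in the Nrdc-cKO sample. After lanosterol, the demethylase Cyp51 stood at 0.75, the C4-methyl oxidase Msmo1 at 0.91 and the ketoreductase Hsd17b7 at 0.86, all higher on the Nrdc-cKO array under each setting run. The reductase Tm7sf2 was at 0.33, the dehydrogenase Nsdhl at 0.11 and the scaffold Erg28 at 0.15. The isomerase Ebp stood at -0.31 and the desaturase Sc5d at -0.64, on the same side as Dhcr7. Mvk, Mvd, Ebp and Nsdhl changed sign between settings other than spike-in scaling.

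**Figure D4:**
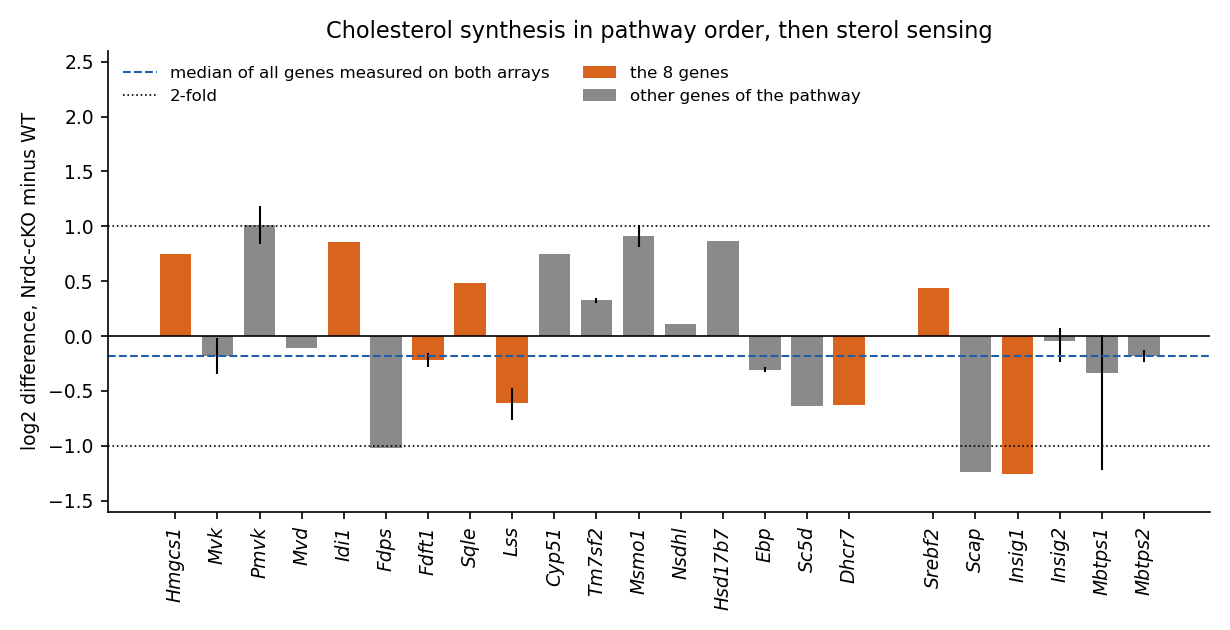
Log2 difference, Nrdc-cKO minus WT, of enzymes of cholesterol synthesis in the order of their steps, then of sterol sensing genes. The 8 genes are in orange and the others in grey, black lines span the probes of a gene, the dashed line is the median gene and the dotted lines are 2-fold. Bars lie on both sides of 0 early and late in the pathway.

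Most sterol sensing genes other than Insig1 and Srebf2 lay close to the median gene, but Scap stood 1.06 below it and Srebf1 0.67 above it. All 10 genes of this list were measured on both arrays, their median was -0.12, and 1 was past 2-fold. That gene was Scap, the escort of SREBP, at -1.24, with levels of 4.69 in the WT sample and 3.45 in the Nrdc-cKO sample. It stood at -0.63 to -1.08 under the other scalings, and at 0.65 with spike-in scaling. Scap and Insig1, which bind each other, were thus both lower relative to other genes. Insig2, the second retention protein, was at -0.05, and the proteases Mbtps1 and Mbtps2 at -0.33 and -0.18. The 4 probes of Mbtps1 ran from -1.22 to 0.01. Srebf1, which encodes SREBP-1, stood at 0.49, near the 0.43 of Srebf2. The ubiquitin ligase Rnf139 stood at -0.19 and the factors Nfyb and Sp1 at 0.10 and -0.05. Apart from Scap and Srebf1, these genes changed sign between settings other than spike-in scaling, and the list median lay between -0.18 and 0.38.

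Genes of cholesterol uptake and transport spanned a wider range than the 8, from -1.57 to 1.71. Of 16, 14 were measured on both arrays, and their median was 0.13. Of these, 5 were past 2-fold upward and 2 downward, against 12.8% and 17.3% of all genes. Lrp1, a large endocytic receptor, stood at 1.71, the lysosomal acid lipase Lipa at 1.56 and the sterol carrier Stard4 at 1.39. Gramd1a, a sterol transfer protein of the endoplasmic reticulum, stood at -1.57 and Stard3 at -1.04. Efflux, esterification and oxysterol genes also split, with 2 of 13 measured genes past 2-fold upward, 4 past it downward and a median of -0.30, which lay between -0.30 and 0.20 over the settings other than spike-in scaling. Apoe (2.62) and the exporter Abca1 (1.49) were higher, and Lcat (-3.16), Abcg8 (-2.84), Abcg5 (-1.33) and the hydroxylase Cyp46a1 (-1.29) were lower. Lcat rested on 1 dim probe, with a processed signal of 62.7 for WT and 22.6 for Nrdc-cKO. Its difference lay between -3.22 and -1.26 over the settings other than spike-in scaling. Ch25h, which makes 25-hydroxycholesterol, was well above background on the Nrdc-cKO array only and at least 8.88-fold higher, a bound set by the dimmest detected WT signal or the probe's own. In the isoprenoid branch, which shares the steps up to Fdps, 1 of 10 genes was past 2-fold, the dolichol synthesis subunit Nus1 at -1.40. The list median was -0.30 and lay between -0.52 and 0.19 over those settings. In at least 1 of those settings Stard4 (0.78), Stard3 (-0.55), Gramd1a (-0.99), Abcg5 (-0.69), Cyp46a1 (-0.74) and Nus1 (-0.88) were short of 2-fold.

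Fatty acid genes that SREBP-1 controls had larger differences than the 8. Of 14 measured, 7 were past 2-fold upward and 2 downward, against 12.8% and 17.3% of all genes, and the median was 1.07. Scd1 (4.53), Thrsp (3.70), Me1 (3.24) and Acaca (2.01) were the highest, and Acacb (-1.90) and Fads2 (-1.26, at most -0.76 outside spike-in scaling) the lowest. With spike-in scaling, genes of these lists that were lower by less than 1.90 were higher on the Nrdc-cKO array.

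**Figure D5:**
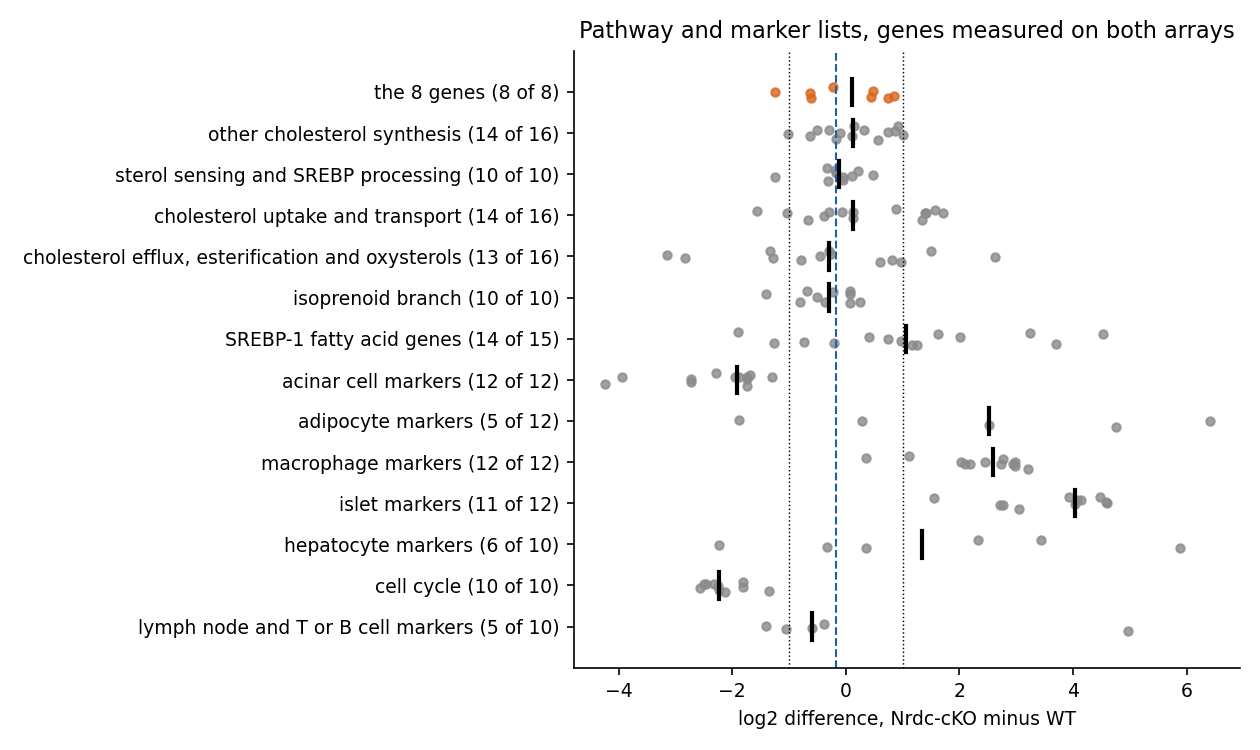
Log2 difference, Nrdc-cKO minus WT, of each gene measured on both arrays (points) in the pathway and marker lists, with the list median as a black bar, the number measured of the number listed in brackets, the median gene as a dashed line and 2-fold as dotted lines. The 8 genes span -1.26 to 0.85, while in this scaling the acinar markers all lie below -1 and 11 of the 12 macrophage markers above 1.

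Markers of several cell types differed between the arrays beside these values. The 12 acinar markers, which define the tissue, were all well above background on both arrays. Relative to other genes, each was lower by 2-fold or more on the Nrdc-cKO array, with a median of -1.92, which lay between -2.03 and -0.41 over the settings other than spike-in scaling and was -0.02 with it. Cpa1, Ctrb1, Prss2 and Cela3b turned to 0.10, 0.06, 0.01 and 0.08 at most with the quantile settings. Cel, Amy2a5, Rbpjl and Cela1 kept their sign outside spike-in scaling but reached -0.08, -0.18, -0.64 and -0.69, short of 2-fold. The summed level of all 12 acinar markers, relative to the 75th percentile on a linear scale, was 41854 for WT and 10104 for Nrdc-cKO. Unlike the differences, the summed levels in this paragraph use every named probe of a gene, detected or not. Of 12 adipocyte markers, 7, among them Adipoq, Plin1 and Cidec, were above background only on the Nrdc-cKO array. Of the 5 measured on both, Plin4 (6.40), Dgat2 (4.76) and Fabp4 (2.51) were past 2-fold upward, Pparg stood at 0.28 and Lep at -1.87, past 2-fold downward. The summed level of the 12 was 14.4 for WT and 472 for Nrdc-cKO. Macrophage markers were past 2-fold upward in 11 of 12 (summed level 25.5 and 89.7) and islet markers in 11 of 11 measured (384 and 2986). Cell cycle genes were past 2-fold downward in 10 of 10, with a summed level of 34.8 and 6.88. Of these, Top2a, Cdk1 and Bub1 were short of it in at least 1 setting other than spike-in scaling. With spike-in scaling the cell cycle median was -0.34, against -2.24 in the main setting. The lowest cell cycle gene there was Birc5 at -0.67, and Top2a turned to 0.53, Cdk1 to 0.08 and Bub1 to 0.08. Of 10 hepatocyte markers, 6 were measured on both arrays, 3 of them past 2-fold upward and 1 downward (4.77 and 23.1), and Fgb and Cps1 were not above background on either. Of 10 lymphoid markers, 5 were measured on both arrays, 1 of them past 2-fold upward and 2 downward, and 4 for Nrdc-cKO alone, while Cd8a was not above background on either (10.05 and 15.4). All of the 8 genes are expressed in many cell types, so fewer cells of a type and less RNA per cell cannot be told apart. The part of these markers in the values of the 8 genes and of the fatty acid and other pathway lists was not tested.

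As a check of the genotype labels, Nrdc stood at 1.93 in the WT sample and -1.28 in the Nrdc-cKO sample, -3.21 in 1 probe, and the labels do not say whether the probe lies in the deleted part. The share of non-control spots well above background was 46.3% for WT and 60.3% for Nrdc-cKO, on arrays that shared a slide and a scan.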

How the data were processed

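Per the labels, Cy3-labelled cRNA made from total RNA of whole pancreas was measured on 1-colour Agilent mouse arrays, 1 for WT and 1 for Nrdc-cKO. The deposited scanner files give each spot's processed intensity, which Agilent Feature Extraction corrected for background and did not normalize between arrays. The file headers name version 12.0.3.1 and the submitters' processing notes 11.5.1.1. The authors' deposited value table holds the same intensity multiplied by 1 constant per array (4.37 for WT, 1.92 for Nrdc-cKO). Its scale stays linear, and within an array a higher value still means more signal. The constants differ and their choice is unknown, so every log2 difference between the arrays shifts alike and some change sign. Fdft1, for example, turned from -0.22 in the main setting to 0.27. The column medians of the value table were 42.5 and 66.0. The deposited flags, such as well above background (coded 0 or 1), were used as given.

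Of 62976 spots, 59305 were not controls. Outlier spots (80 and 74) were left out, and 0 were saturated. Processed signals were put on the log2 scale, repeat spots averaged over 56604 probes, and the array's 75th percentile subtracted. A probe counted as detected where the flag was set for a share of 0.5 or more of its spots. A gene's difference averages the probes detected in both samples, and 2-fold is the threshold. Genes were named by RefSeq accession through a table of GRCm38.p6 (32993 of 35885 RefSeq probes, 91.9%), used for names and promoter windows only, since the array design refers to mm9. Normexp used limma 3.58.1 with an offset of 50 on the median spot signal, since the mean signal was not used here, loess a span of 0.3 in statsmodels 0.14.6, and spike-in scaling 8 E1A control probes. Scaling and averaging were tested on simulated data. These had balanced changes up and down, a common offset for all probes and the same detected probes on both arrays. They cannot show which scaling suits the real arrays. The number of arrays limits the precision.

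The 8 genes, the lists and the alternatives were chosen with earlier results of these data known. Named were the 8, Nrdc, every detected gene of synthesis and sensing, and of the other pathway lists up to 4 genes past 2-fold in each direction. Some genes this rule covers are not reported here, though list counts and medians include them. Of the marker lists up to 3 genes were to be named. Cela3b, further acinar, adipocyte and cell cycle genes beyond that number were named after their values were seen. Genes were not ranked by likeness, since 2 arrays give 1 difference per gene.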

Additional observations from a re-analysis of the deposited data

How the results depend on the processing

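No paired analysis was possible because neither group had a second array, and no replicate could be left out for the same reason. The median difference of the 8 genes, 0.11, was 0.25 with loess, 0.27 with the 75th percentile of detected probes, 2.0 with spike-in scaling, -0.044 with normexp and the 75th percentile, and 0.60 in the authors' value table. The count at least 2-fold higher, 0, was 1 with loess, the detected-probe percentile, and normexp with the 75th percentile, 2 in the value table and at 1.5-fold, and 7 with spike-in scaling. The count at least 2-fold lower, 1, was 0 with spike-in scaling, both normexp settings, the value table and at 4-fold, and 3 at 1.5-fold. With spike-in scaling Insig1 turned to 0.64, Dhcr7 to 1.27, Lss to 1.28 and Fdft1 to 1.67. Fdft1 also turned with loess (0.04), normexp and the 75th percentile (0.17) and the value table (0.27), and Srebf2 with normexp and the 75th percentile (-0.25). Of all values of single genes under the alternatives apart from that of Insig1 with spike-in scaling, 49 moved by more than the 95th percentile of the repeat-spot SD and 28 did not. Most of these 28 came from settings that change only which probes are used. There a gene whose probes stayed the same kept its value by construction, so the 28 do not measure stability. With bright probes only, Dhcr7 and Srebf2 had no value. Spike-in scaling, the value table and the detected-probe percentile shift all genes alike by construction, another threshold changes only the counts, and for the other changes the cause was not tested. Signal over background limits Srebf2 on the WT array most.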
